A study of Mus musculus with 6 samples.

Results

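The genes described here encode the molecules by which cells hold on to one another and to their matrix: integrin chains, laminins, nidogens and perlecan, fibronectin, tenascin C and periostin, thrombospondins, fibulins, fibrillin, spondins, cadherins, and the integrin-linked cytoplasmic proteins talin and vinculin. They were chosen by gene symbol alone, from probe sets with exactly 1 symbol in the platform annotation, with the brightest probe set standing for a gene. The rule gave 44 genes of the 5780 named in the table, each with 1 probe set. The tissue was forearm bone (radius and ulna) taken at birth from 129sv mice, with 3 arrays for mice carrying the del175k mutation of Tnni2 and 3 for their wild-type littermates. Tnni2 encodes the fast skeletal muscle form of troponin I. The labels speak of 3 pairs of mutants and littermates without saying which arrays share a litter. They give neither the zygosity of the mutants nor whether an array held the bone of 1 mouse, and a p-value here reflects only how far these particular samples scatter, some of which may be technical.

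Integrins are receptors made of an alpha and a beta chain that bind matrix proteins outside the cell and connect to actin inside it through talin and vinculin. Laminins assemble into the basement membrane sheets around muscle fibres, vessels and nerves, where nidogens and perlecan tie them to collagen IV. Fibronectin, tenascin C, periostin and the thrombospondins lie in the looser matrix of perichondrium, periosteum, tendon and growth plate, fibulins and fibrillins build microfibrils and elastic fibres, and cadherins join cells to cells through calcium-dependent contacts. In a long bone at birth these molecules are found in cartilage, bone, periosteum, vessels, marrow, and in any muscle and tendon attached to it.

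Each probe set had 1 linear intensity per array in the deposited table. Wild-type replicate 1 stood apart: its array median was 39.6, against 47.6, 45.5 and 47.8 on the mutant arrays and 48.4 and 48.0 on the other wild-type arrays. Set against the average of the other 5 arrays, its median log2 deviation was -0.30 over all probe sets and -0.53 over the 44 adhesion genes. Differences that moved by over 1.5 times without this array are therefore given with and without it. Every probe set of the table reached 20 on at least 3 of the 6 arrays. Values under 20 occurred in 8 of the 44 genes, and 0 genes were under 20 on all 3 arrays of a group. The mutated gene itself, Tnni2, had intensities of 133.8, 127 and 198 on the mutant arrays and of 102, 165 and 258 on the wild-type arrays. These groups overlapped, and the level of a transcript that lacks a codon does not check the genotype.

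Upstream sequence was taken from RefSeq (build GRCm38.p6) for the genes that gave the highest differences in mutant bone and had an entry, so that the stretch before their start can be seen beside their values. RefSeq windows were matched by symbol for 28 of the 44 genes. Each line gives the 250 bases before the annotated start, 5′ to 3′ on the strand of the gene, with capitals marking a GC box (GGGCGG or, on the other strand, CCGCCC).
Itgbl1 (chr14:123659890-123660139, plus strand): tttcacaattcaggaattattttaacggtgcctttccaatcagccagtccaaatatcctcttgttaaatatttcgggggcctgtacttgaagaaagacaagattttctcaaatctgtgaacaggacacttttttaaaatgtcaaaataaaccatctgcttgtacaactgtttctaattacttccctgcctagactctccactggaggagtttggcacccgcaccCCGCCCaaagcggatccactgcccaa
Lama2 (chr10:27616943-27617192, minus strand): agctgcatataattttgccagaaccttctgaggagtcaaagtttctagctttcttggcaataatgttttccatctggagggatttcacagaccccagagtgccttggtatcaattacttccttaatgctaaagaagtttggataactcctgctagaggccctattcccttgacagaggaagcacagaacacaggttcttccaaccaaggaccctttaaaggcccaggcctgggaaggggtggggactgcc
Itga10 (chr3:96645334-96645583, plus strand): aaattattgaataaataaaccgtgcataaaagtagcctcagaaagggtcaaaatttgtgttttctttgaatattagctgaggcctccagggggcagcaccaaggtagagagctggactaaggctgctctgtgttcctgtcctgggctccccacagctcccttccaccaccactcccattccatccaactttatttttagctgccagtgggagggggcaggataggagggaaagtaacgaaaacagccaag
Nid1 (chr13:13437352-13437601, plus strand): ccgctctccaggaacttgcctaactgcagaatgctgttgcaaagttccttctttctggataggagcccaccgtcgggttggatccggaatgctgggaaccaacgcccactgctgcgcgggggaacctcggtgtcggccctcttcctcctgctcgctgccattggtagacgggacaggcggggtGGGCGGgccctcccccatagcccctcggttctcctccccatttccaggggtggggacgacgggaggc
A GC box was found in the windows of Itgbl1 and Nid1 and in neither of the other windows shown. Over all 32851 RefSeq windows of this length 32.7% held these letters, and 53.1% of the 32 windows of adhesion genes did. A TATA box (TATAAA or TTTATA) was found in 12.5% of the adhesion windows and 12.4% of all windows. The AP-1 letters TGANTCA, the same on both strands, were in 0 of the adhesion windows and in 6.75% of all windows. These are matches of letters within a fixed window and were not tested as binding sites.

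The comparison of mutant with wild-type bone asks which of these genes differ in the developing skeleton of the mutants. None of the 44 genes passed at an adjusted p of 0.05 in the limma fit over all 8997 probe sets, where 0% of probe sets passed in either direction. The genes furthest apart were Itgbl1, Lama2 and Itga10, with higher intensities in mutant bone, and Spon2, with lower ones. At an unadjusted p under 0.05 there were 3 higher genes (6.82% of the 44, against 5.74% of all probe sets) and 1 lower gene (2.27%, against 1.7% of all probe sets). The groups were apart, with no overlap, in 3 genes higher in mutants (Itgbl1, Lama2 and Cdh11) and in 1 lower gene (Spon2). These are 6.82% and 2.27% of the genes, against 9.18% and 3.89% of all probe sets, so the shares of the adhesion genes were not above those of the whole table. By their mean 27 genes were higher and 17 lower in the mutants, or 61.4% higher against 56.7% of all probe sets. The median log2 difference was 0.14, against 0.045 over all probe sets. Over the 5780 genes with 1 symbol, chosen as the adhesion genes were, 59.9% were higher and the median was 0.072. The 95% interval of a difference extended by a median of 0.57 to either side on the log2 scale, and for 40 of the 44 genes the interval held the median of all probe sets.

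**Figure D1:**
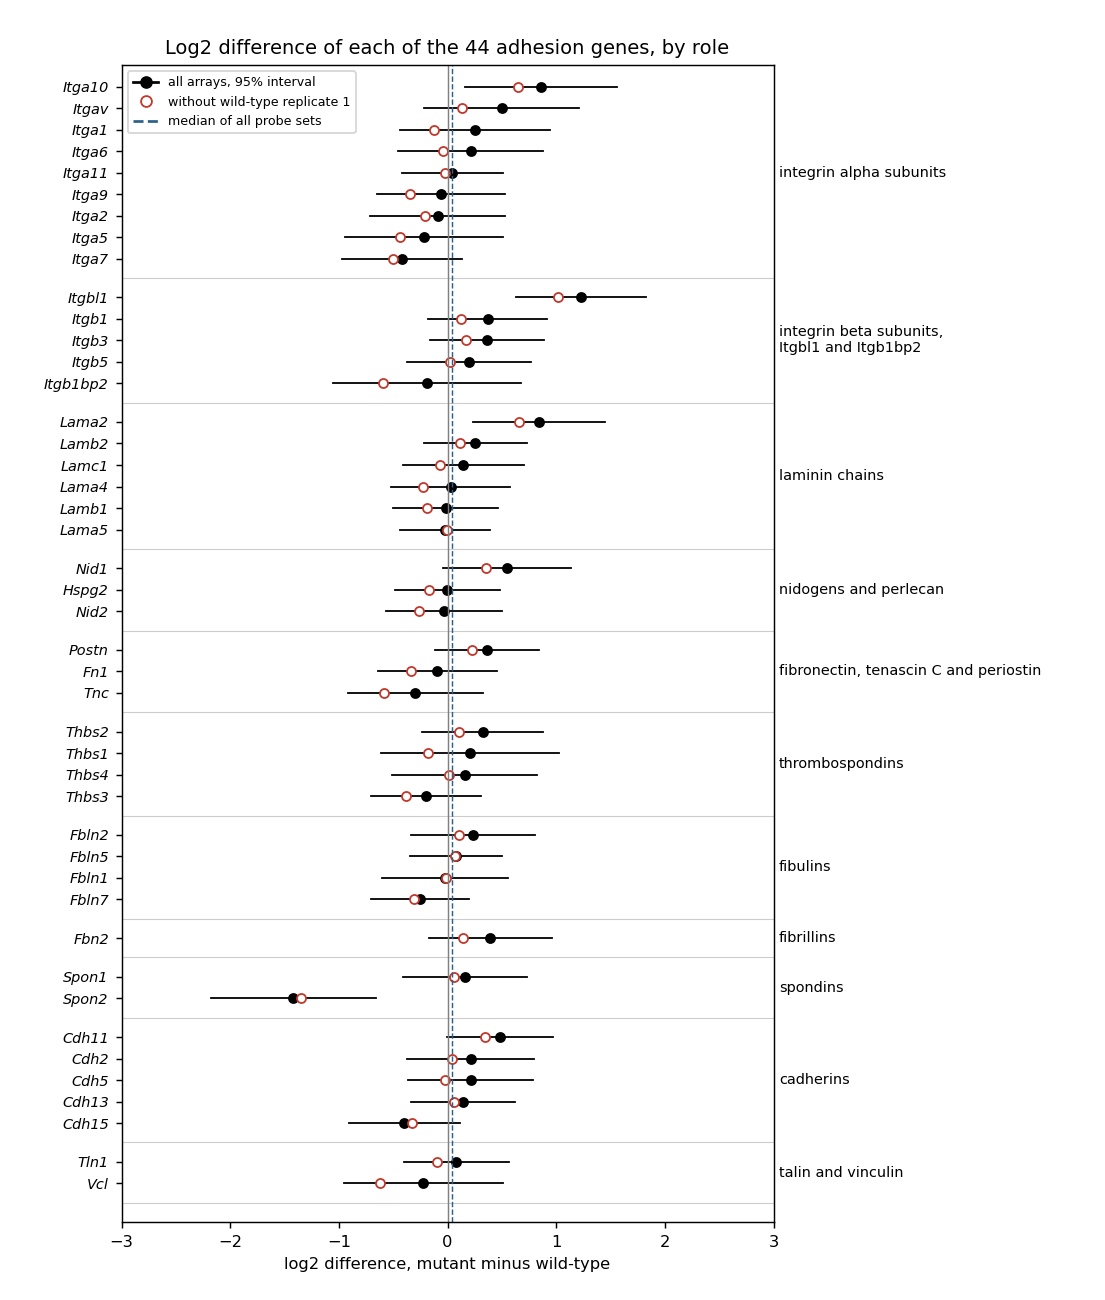
Log2 difference, mutant minus wild-type (horizontal axis), of each of the 44 adhesion genes (rows), grouped by role; filled points and lines give the difference and its 95% interval over all 6 arrays, open points the difference without wild-type replicate 1, and the dashed line the median of all probe sets. Spon2 at -1.42 and Itgbl1 at 1.23 lie furthest out, and most open points lie to the left of the filled ones.

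Itgbl1 encodes a secreted protein whose repeats resemble the stalk of an integrin beta chain but which is not itself a receptor. Its intensities were 174, 175 and 135 on the mutant arrays, against 50.8, 98.01 and 64.2 on the wild-type arrays. The lowest mutant array lay above the highest wild-type array. The means were 161 ± 22.9 in mutant and 71.0 ± 24.3 in wild-type bone (SD, n = 3 each), a log2 difference of 1.23 ± 0.27 (SE), or 2.34-fold, with a limma adjusted p of 0.42. Leaving out wild-type replicate 1, the difference was 1.01 ± 0.24 (adjusted p = 0.681), and the groups still did not overlap.

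Spon2 encodes spondin 2 (mindin), a secreted matrix protein that can act as an integrin ligand for leukocytes. It was at 19.1, 29.6 and 52.2 on the mutant arrays, against 90.9, 92.2 and 67.1 on the wild-type arrays. All mutant values were lower, with mutant replicate 3 nearest to the wild-type and mutant replicate 1 under 20. The means were 33.6 ± 16.9 and 83.4 ± 14.2 (SD, n = 3 each), a log2 difference of -1.42 ± 0.34 (limma adjusted p = 0.478). Leaving out wild-type replicate 1 gave -1.35 ± 0.40 (adjusted p = 0.712), and leaving out mutant replicate 3 gave -1.797 ± 0.28, where the adjusted p of 0.0598 was the smallest of any named adhesion gene under any setting tried. That setting drops the mutant array nearest to the wild-type, which widens the gap. In it 15 of all 8997 probe sets passed at an adjusted p of 0.05, against 0 with all arrays. The related Spon1 was at 27.1, 19.9 and 26.1 in mutants and 18.7, 30.3 and 17.8 in wild-type, with groups that overlapped (0.16 ± 0.26, or 0.06 ± 0.27 without wild-type replicate 1). Epidermal markers, 6 of 18 listed genes measured, also had lower means in mutants in all 6, with sums of 75.3, 460.4 and 51.3 on the mutant arrays and 1798, 1248 and 47.3 on the wild-type arrays. Within the wild-type both Spon2 and this sum were lowest on replicate 3, whereas within the mutants Spon2 was highest on replicate 3, where the sum was lowest. The part of skin in the Spon2 value was not tested.

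Lama2 encodes the laminin alpha 2 chain of the basement membrane of muscle fibres and peripheral nerve, whose loss causes a congenital muscular dystrophy. It was at 110.2, 106 and 64.3 on the mutant arrays and at 38.9, 56.0 and 59.8 on the wild-type arrays. The groups did not overlap, although mutant replicate 3 lay close to the wild-type range. The log2 difference was 0.84 ± 0.27 (SE; limma adjusted p = 0.595), or 0.65 ± 0.26 when wild-type replicate 1 was left out (adjusted p = 0.73). Itga10 encodes the alpha chain of a collagen receptor found mainly on chondrocytes. It was at 93.8, 78.3 and 44.2 on the mutant arrays and at 28.3, 47.8 and 40.4 on the wild-type arrays. Here mutant replicates 1 and 2 lay above every wild-type array and mutant replicate 3 within their range. Its log2 difference of 0.86 ± 0.31 (adjusted p = 0.649) was 0.64 ± 0.32 without wild-type replicate 1.

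Cdh11, or osteoblast cadherin, a cell contact molecule of mesenchyme and bone-forming cells, had values close together in the mutants. They were 228, 208 and 201 there, against 125, 195 and 144 in wild-type bone. The groups did not overlap, by a narrow margin at wild-type replicate 2. The log2 difference was 0.48 ± 0.22 (SE; limma adjusted p = 0.679) and 0.34 ± 0.19 without wild-type replicate 1. Nid1, for the basement membrane linker nidogen 1, was at 338, 249 and 203 in mutants and at 135, 221 and 184 in wild-type bone. Mutant replicate 3 lay below wild-type replicate 2, and the log2 difference was 0.55 ± 0.26 (adjusted p = 0.697), or 0.35 ± 0.24 without wild-type replicate 1.

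**Figure D2:**
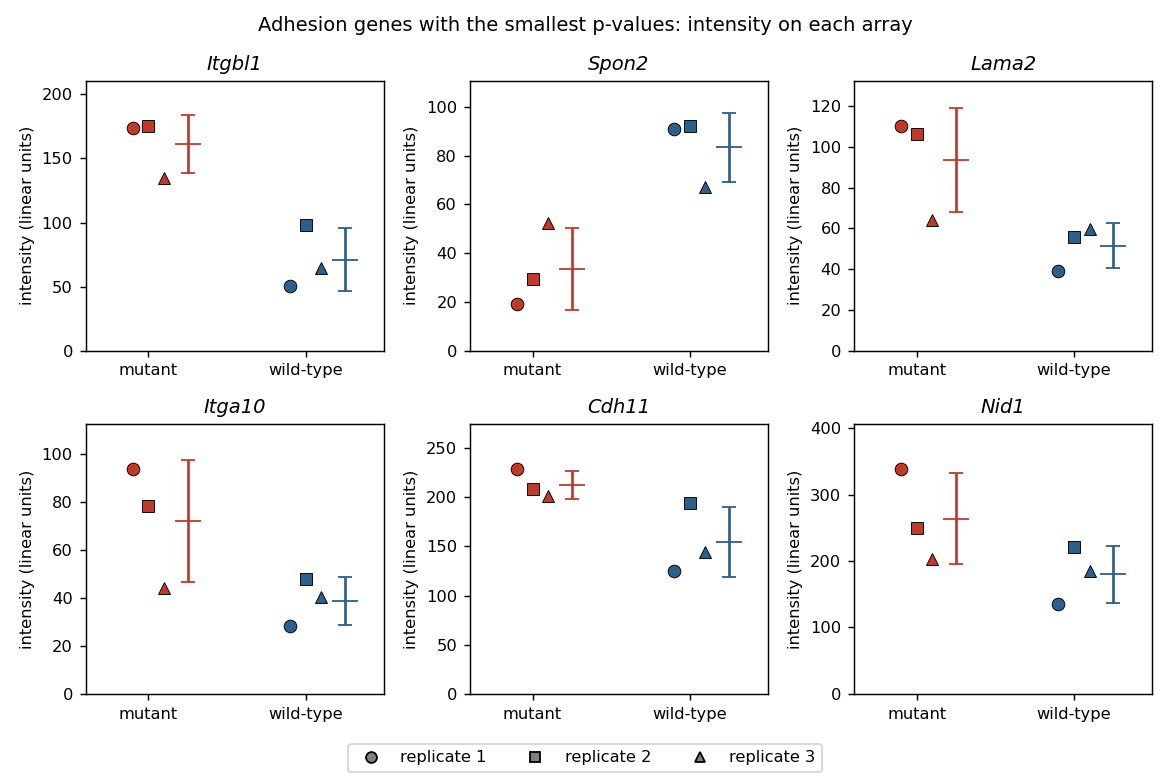
Intensity (linear units, axes from 0) of the 6 adhesion genes with the smallest p-values on each array, mutant left and wild-type right; symbols mark the replicate, and the bar beside each group gives its mean and SD (n = 3). Groups are apart in Itgbl1, Spon2, Lama2 and Cdh11, and mutant replicate 3 is the mutant array nearest to the wild-type in all 6 panels.

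Among the integrin chains, 5 of 9 alpha subunit genes had a higher mean in mutant bone and 4 a lower one. Itgav, the alpha chain of the receptors for vitronectin and other ligands with an RGD sequence, was at 136, 122 and 91.4 in mutants and 49.1, 114 and 95.4 in wild-type. Its log2 difference of 0.50 ± 0.32 (SE) was 0.14 ± 0.22 without wild-type replicate 1, the array that was low. Itga7, the laminin receptor chain of skeletal muscle, was at 19.8, 22.7 and 17.7 in mutants and 23.7, 21.5 and 37.0 in wild-type, with a log2 difference of -0.42 ± 0.25. These groups overlapped, and 2 of the mutant values lay under 20. The other alpha chains lay between 0.25 for Itga1 and -0.22 for Itga5, the fibronectin receptor chain, and without wild-type replicate 1 these were at -0.13 and -0.44. Without that array Itga6 and Itga11 were at -0.038 and -0.021, and Itga2 and Itga9 at -0.21 and -0.35, so that Itga10 and Itgav were the 2 alpha chains with a higher mean in mutants. Of the other chains, Itga1, Itga2 and Itga11 bind collagen, Itga6 binds laminin, and Itga9 binds tenascin C.

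Of the integrin beta genes, Itgb1, the partner of most of these alpha chains, was at 219.9, 250.2 and 228 in mutants and 127, 221 and 206 in wild-type bone. Mutant replicate 1 lay just under wild-type replicate 2, and the log2 difference was 0.37 ± 0.24 (SE), or 0.12 ± 0.16 without wild-type replicate 1. Itgb3, the beta chain with which Itgav forms the main integrin of osteoclasts, was at 116, 92.3 and 84.9 in mutants and 57.9, 80.5 and 91.6 in wild-type, a log2 difference of 0.36 ± 0.24, or 0.17 ± 0.20 without wild-type replicate 1. Osteoclast markers had higher sums on all mutant arrays. The total over 10 measured genes, Itgb3 among them, was 2282, 1766 and 2127 in mutants and 1006, 1349 and 1606.5 in wild-type. Of the 10, 8 had a higher mean, against 56.7% of all probe sets, and the median log2 difference was 0.38. Without wild-type replicate 1 there were 9, against 44.7% of all probe sets, and the median was 0.20. In such a tissue sample more cells of a type and more RNA per cell cannot be told apart, and the part of osteoclast number in the Itgb3 value was not tested. Itgb5 differed by 0.20 ± 0.25, or 0.022 ± 0.24 without that array. The symbol rule also took in Itgb1bp2, which encodes melusin, a muscle protein that binds the tail of the beta 1 chain and is no subunit. It was at 75.7, 55.9 and 101 in mutants and 49.1, 85.1 and 152 in wild-type, with a log2 difference of -0.19 ± 0.39, or -0.59 ± 0.33 without wild-type replicate 1.

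The muscle genes of the set can be read beside the muscle marker list. Of its 25 measured genes 11 had higher and 14 lower means, where 56.7% of all probe sets were higher. Without wild-type replicate 1 there were 8 higher and 17 lower, where 44.7% of all probe sets were higher. The median log2 difference of the list was -0.049 with all arrays and -0.18 without that array. The sum of the list was 7832, 7893 and 10000 in mutants and 5497, 8786 and 11755 in wild-type. Itgb1bp2 had the same order over the wild-type arrays, lowest in replicate 1 and highest in replicate 3. Cdh15, or M-cadherin of myoblasts and satellite cells, was at 16.9, 13.0 and 21.1 in mutants and 24.2, 19.7 and 22.1 in wild-type, a log2 difference of -0.40 ± 0.23 (SE) with overlapping groups. All 6 values were near the level of 20, where the unstated background correction bears on any fold. Over the wild-type arrays Lama2 was also lowest in replicate 1 and highest in replicate 3. Cdh15 and Itga7 did not have this order and were lowest in wild-type replicate 2. Within the mutants Lama2 was lowest in replicate 3, where the muscle sum was highest. The part of muscle content in these values was not tested.

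The remaining laminin chains gave small differences. Lamb2 was at 230.1, 208 and 177 in mutants and 140.5, 193 and 183 in wild-type (log2 difference 0.26 ± 0.21, SE), and Lamc1, the gamma chain shared by most laminins, differed by 0.15 ± 0.25. Lama4, the alpha chain of vessel walls, differed by 0.03 ± 0.25, Lamb1 by -0.02 ± 0.22 and Lama5, between 19.9 and 22.5 on every array, by -0.02 ± 0.18. Without wild-type replicate 1 these differences were 0.12 for Lamb2, -0.068 for Lamc1, -0.22 for Lama4, -0.18 for Lamb1 and -0.0031 for Lama5. For Lamb1 the 95% interval ran from -0.50 to 0.47. Nid2, the second nidogen, was at 107, 111 and 132 in mutants and 86.8, 142 and 136 in wild-type (-0.03 ± 0.24). Perlecan, encoded by Hspg2 and needed in cartilage as well as basement membranes, was at 384, 325 and 314 in mutants and 271, 386 and 377 in wild-type, a log2 difference of -0.0022 ± 0.22 with an interval from -0.49 to 0.48. Without wild-type replicate 1, Nid2 was at -0.26 ± 0.17 and Hspg2 at -0.17 ± 0.17.

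Fn1, for fibronectin, had intensities of 999.9, 1108 and 957 in mutants and 781, 1190 and 1388 in wild-type bone. Its log2 difference was -0.09 ± 0.24 (SE) with all arrays and -0.33 ± 0.17 without wild-type replicate 1 (limma adjusted p = 0.742). Tnc, for tenascin C of perichondrium and tendon, was at 198, 151 and 217 in mutants, against 153, 282 and 278 in wild-type. It differed by -0.30 ± 0.28, and by -0.59 ± 0.20 without wild-type replicate 1 (adjusted p = 0.712). Postn, for periostin of the periosteum, had a higher mean in mutants, at 1022, 916 and 865 in mutants and 602, 902 and 703 in wild-type (0.36 ± 0.21, or 0.23 ± 0.19 without wild-type replicate 1).

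Of the thrombospondins, Thbs2 differed by 0.32 ± 0.25 (SE), with 607, 428 and 522 in mutants and 305, 509 and 446 in wild-type. Thbs1, an inhibitor of vessel growth, varied most within a group of the 4, from 262 to 772 in wild-type, and differed by 0.21 ± 0.37. Thbs3 was lower by its mean (-0.20 ± 0.22), and Thbs4 of tendon was at 579, 412 and 301 in mutants and 304, 325 and 523 in wild-type (0.16 ± 0.30). Without wild-type replicate 1 the differences were 0.11 for Thbs2, -0.18 for Thbs1, -0.38 for Thbs3 and 0.011 for Thbs4. The 4 fibulins ranged from -0.25 for Fbln7 to 0.23 for Fbln2, which was at 0.11 without that array. Fbln5, required for elastic fibre assembly, was among the steadiest at 87.3, 88.9 and 96.7 in mutants and 84.4, 95.3 and 78.9 in wild-type. Fbn2 encodes fibrillin 2 of developing microfibrils, and its human counterpart is mutated in congenital contractural arachnodactyly. It was at 345, 303 and 306 in mutants and 171, 325 and 255 in wild-type, a log2 difference of 0.39 ± 0.25 (adjusted p = 0.725) that was 0.14 ± 0.18 without wild-type replicate 1.

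Among the other cadherins, Cdh5, the endothelial cadherin, was at 59.9, 41.4 and 54.4 in mutants and 32.1, 55.0 and 49.1 in wild-type (0.21 ± 0.26, SE, or -0.019 ± 0.21 without wild-type replicate 1). The 14 measured endothelial markers, Cdh5 included, summed to between 522 and 599.8 in mutants and between 431 and 549.6 in wild-type. Cdh2, or N-cadherin of condensing mesenchyme, differed by 0.21 ± 0.26 and Cdh13 by 0.14 ± 0.21, and without that array by 0.042 and 0.058. Inside the cell, Tln1, for the talin that switches integrins on, differed by 0.08 ± 0.22, or -0.095 ± 0.16 without wild-type replicate 1. Vcl, for vinculin, was at 70.9, 54.6 and 70.5 in mutants and 43.3, 105 and 95.1 in wild-type. The mutant values lay between the dim wild-type replicate 1 and the other wild-type arrays, and the log2 difference was -0.22 ± 0.33 with all arrays and -0.62 ± 0.19 without that array (limma adjusted p = 0.712).

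Wild-type replicate 1 held the lowest value of 32 of the 44 genes, or 72.7%, against 49.99% of all probe sets. Without it 19 genes were higher and 25 lower in the mutants (43.2% higher, against 44.7% of all probe sets), the median log2 difference was -0.020 against -0.033 over all probe sets, and 8 genes changed sign, each of them higher with all arrays. Groups then did not overlap in 3 higher genes (6.82%, against 10.7% of all probe sets) and in 9 lower genes (20.5%, against 12.5%). The 9 were Fn1, Itga9, Lama4, Lamb1, Nid2, Spon2, Thbs3, Tnc and Vcl. At an unadjusted p under 0.05 there were 2 higher genes, Itgbl1 and Lama2, and 3 lower ones, Spon2, Tnc and Vcl, which are 4.55% and 6.82% against 3.2% and 3.41% of all probe sets. Without wild-type replicate 2, by contrast, 7 higher genes had an unadjusted p under 0.05 (15.9%, against 8.99% of all probe sets) and 13 had groups apart (29.5%, against 19%). Without mutant replicate 3 there were 10 such genes (22.7%, against 15.8%) and 4 lower ones (9.09%, against 12.4%). After centring each array on its median, Itgbl1, Lama2, Itga10 and Cdh11 were the 4 higher genes at an unadjusted p under 0.05 (9.09%, against 6.34%) and Spon2 the 1 lower gene (2.27%, against 3.27%).

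**Figure D3:**
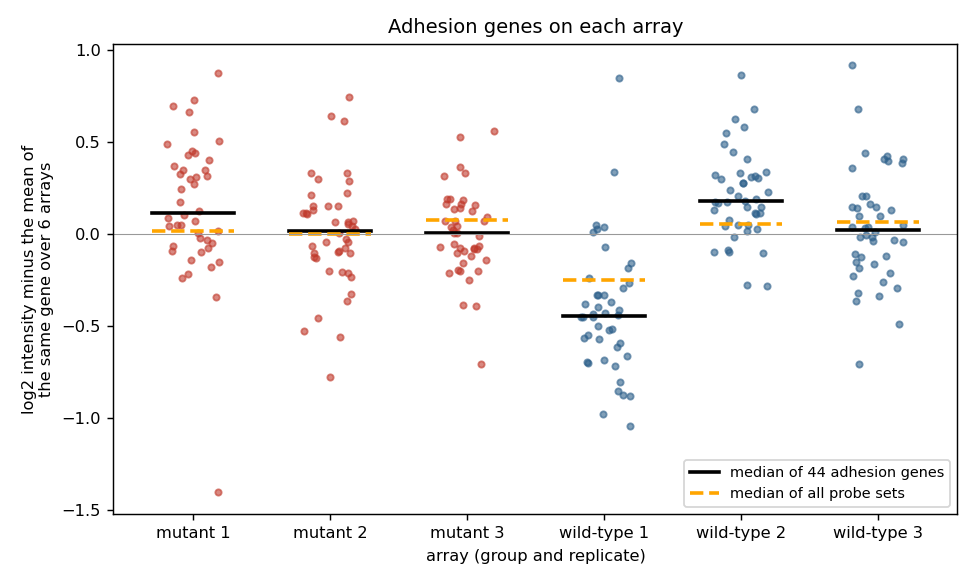
Log2 intensity of each of the 44 adhesion genes on each array (points), relative to the mean of that gene over the 6 arrays, with the median of the 44 genes (solid line) and of all probe sets (dashed line). On wild-type replicate 1 the adhesion genes have a median of -0.44, below that of all probe sets at -0.25, while on wild-type replicate 2 they lie above it, at 0.18 and 0.056.

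A ratio between genes on the same array cancels a scale factor shared by the probe sets of that array. Such log2 ratios were taken for 8 pairs picked after their values were seen, so they are given without a test, and only their difference between arrays can be read, not their size. Lama2 over Lama4 was 0.21, -0.0067 and -0.74 in mutants and -0.88, -1.19 and -0.92 in wild-type. Itga10 over Itga11, both chains of collagen receptors, was 1.25, 1.40 and 0.51 in mutants and -0.050, 0.36 and 0.42 in wild-type. In Lama2 over Lama4 and Itga10 over Itga11 mutant replicate 3 was the closest to the wild-type. Itgbl1 over Itgb1 was -0.34, -0.51 and -0.76 in mutants and -1.32, -1.18 and -1.68 in wild-type. Itgav over Itga5 was 0.14, 0.31 and 0.63 in mutants and -0.64, -0.38 and -0.050 in wild-type. In each of these pairs, Lama2 over Lama4 and Itga10 over Itga11 included, every mutant ratio was above every wild-type ratio. Spon2 over Spon1 was -0.51, 0.57 and 0.998 in mutants and 2.28, 1.60 and 1.92 in wild-type, lower in every mutant. Postn over Tnc was 2.37, 2.60 and 1.99 in mutants and 1.97, 1.68 and 1.34 in wild-type, apart by a narrow margin. Nid1 over Nid2 and Cdh11 over Cdh2 had groups that overlapped. Itgbl1, Lama2, Itga10 and Spon2 were already the genes furthest apart, so gaps in their ratios are no separate support for them. How often other pairs of genes have ratios apart was not computed.

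The partners of these molecules were described from 5 lists, in which 0 genes passed at an adjusted p of 0.05. Of 32 measured genes for integrin adaptors and focal adhesions, 22 had higher means and 10 lower ones in mutants. Their median log2 difference was 0.23. Without wild-type replicate 1 there were 19 higher and 13 lower, with a median of 0.094. Over all probe sets 56.7% were higher with all arrays and 44.7% without that array. Tns1 and Tns3 encode tensins, which bind integrin tails and actin. Tns1 was at 267, 207 and 184 in mutants and 107, 146 and 134 in wild-type (0.76 ± 0.22, SE; limma adjusted p = 0.591). Tns3 was at 137, 100.2 and 91.1 in mutants and 45.3, 73.3 and 65.0 in wild-type (0.85 ± 0.25, adjusted p = 0.591). Both tensins had groups that did not overlap, with and without wild-type replicate 1, and their log2 differences without it were 0.63 and 0.64. The kinase-like linker gene Ilk (-0.05 ± 0.23) and the filamin gene Flna (-0.02 ± 0.23) lay near 0, and at -0.26 and -0.23 without wild-type replicate 1.

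The 8 cadherin partners had 7 higher means and a median of 0.21, or 3 higher means and -0.030 without wild-type replicate 1. The 2 with the smallest p were Afdn, for the junction protein afadin (0.40 ± 0.20, SE), and Ctnnd1, for the p120 catenin (0.50 ± 0.30, or 0.15 without wild-type replicate 1). Ctnnb1, for beta-catenin, differed by 0.35 ± 0.23, and by 0.13 without wild-type replicate 1. Basement membrane partners were divided into 11 higher and 8 lower genes, with a median of 0.021. Without wild-type replicate 1 there were 4 higher and 15 lower, with a median of -0.15. Col15a1, for a collagen at the outer face of basement membranes, was at 98.1, 81.1 and 98.4 in mutants and 103, 131 and 145 in wild-type (-0.44 ± 0.21). Utrn, for the dystrophin relative utrophin, was at 56.7, 55.6 and 56.0 in mutants and 21.1, 53.2 and 43.6 in wild-type (0.62 ± 0.32, or 0.22 without wild-type replicate 1). Groups did not overlap in either gene, by a narrow margin for Utrn. Laminin-binding dystroglycan, encoded by Dag1, differed by 0.16 ± 0.21, while the collagen IV genes Col4a1 and Col4a2 were at 0.07 ± 0.24 and 0.02 ± 0.26. Without wild-type replicate 1 these were at 0.051, -0.13 and -0.17.

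Elastic fibre partners were evenly divided with all arrays, 10 higher and 10 lower (median -0.033). Without wild-type replicate 1 there were 4 higher and 16 lower (median -0.096). Lox, for the enzyme that crosslinks collagen and elastin, was at 262, 264 and 172 in mutants and 84.3, 179 and 132 in wild-type (0.86 ± 0.30, SE; limma adjusted p = 0.638), or 0.57 without wild-type replicate 1. Tgfb3, for a growth factor stored on microfibrils, was at 126, 118 and 114 in mutants and 59.9, 103 and 75.9 in wild-type (0.62 ± 0.23), with groups apart. Eln itself, for elastin, differed by 0.0042 ± 0.22, or 0.0011 without wild-type replicate 1. Matricellular genes held the widest differences. They were also divided 10 to 10 with all arrays (median 0.0016), or 7 higher and 13 lower without wild-type replicate 1 (median -0.20). Spock2, for a testican proteoglycan, was at 110.1, 90.8 and 39.2 in mutants and 15.4, 39.9 and 21.0 in wild-type (1.64 ± 0.43, adjusted p = 0.559). Its value on wild-type replicate 1 lay under 20. Mgp, for the calcification inhibitor matrix Gla protein, was at 619, 626 and 405 in mutants and 178, 322 and 339 in wild-type (1.004 ± 0.29, adjusted p = 0.591). Ccn2, for connective tissue growth factor, was at 1436, 1126 and 489.8 in mutants and 288, 778 and 403 in wild-type (1.05 ± 0.45). Ccn3, of the same family, had lower values in mutants, at 105, 105 and 86.9 in mutants and 144, 214 and 141 in wild-type (-0.73 ± 0.23, adjusted p = 0.591).

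**Figure D4:**
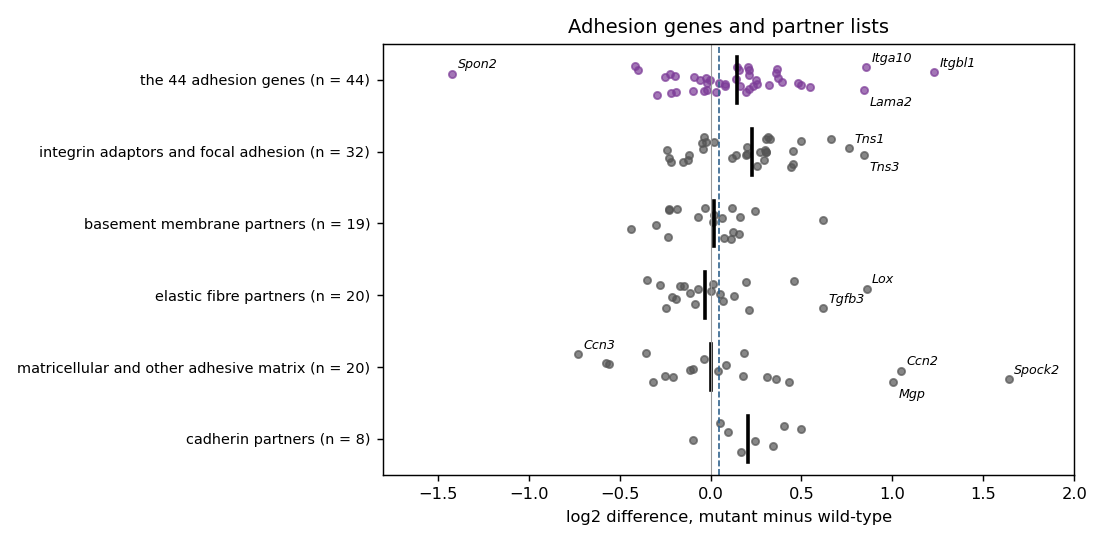
Log2 difference, mutant minus wild-type, of the 44 adhesion genes (top) and of the measured genes of 5 partner lists (points), with the median of each list (black bar) and of all probe sets (dashed line); genes at an unadjusted p under 0.05 are named. List medians lie between -0.033 and 0.23, and 0 genes passed at an adjusted p of 0.05.

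Defining markers of bone and cartilage were present on every array, with Col1a1 between 6552 and 7807 and Col2a1 between 2540 and 4003. The 18 chondrocyte markers summed to 9628, 9729 and 8578 in mutants and 6497, 9604 and 9538 in wild-type, the lowest value again on wild-type replicate 1, and their part in the Itga10 value was not tested. Connective tissue markers, Thbs4 among them, summed to between 4128 and 4427 in mutants and between 3612.5 and 4777 in wild-type.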

How the data were processed

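The values were intensities, 1 summarised brightness per probe set and array on a linear scale, as the authors deposited them. Background correction, summarisation and scaling between arrays are not given in the sources used here. RNA was isolated on RNeasy columns, reverse-transcribed and labelled with Affymetrix whole-transcript kits, per the labels' protocols. Probe sets were named from the platform annotation: 6398 had 1 symbol, 576 several and 2023 none.

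Log2 was taken of the intensities as they stood, without filtering. All 8997 probe sets entered 1 limma fit (version 3.58.1, lmFit then eBayes, R 4.3.3) with a mean per genotype, two-sided, with Benjamini-Hochberg adjustment over all of them. Adjusted p-values are from limma. The procedure was tested on simulated data with independent noise for each probe set. No shift shared by a whole array was simulated, so the test does not cover the effect of the dim wild-type replicate 1. Tables and plots used Python 3.11.15, pandas 2.3.3 and matplotlib 3.10.9. The genes and lists were chosen with earlier results of these data known. Named were genes at an unadjusted p under 0.05 or with groups apart, and in each role the 2 of smallest p and the brightest; others were added for their role after their values were seen. In partner lists the 2 of smallest p and those at an unadjusted p under 0.05 were named. Marker lists with 1 measured gene each were those of megakaryocytes (Pf4, log2 difference 0.24) and nerve (Pmp22, -0.02, or -0.17 without wild-type replicate 1). Leukocyte markers had 8 of 9 higher means, osteoblast markers 8 of 11 and erythroid markers 2 of 4, against 56.7% of all probe sets. Without wild-type replicate 1 these were 7 of 9, 4 of 11 and 3 of 4, against 44.7% of all probe sets. The number of arrays, 3 per group, limits the precision. Alternatives are given at the end.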

Additional observations from a re-analysis of the deposited data

How the results depend on the processing

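None of the 44 genes passed at an adjusted p of 0.05 under any of the 16 alternatives, nor did a gene of the partner lists. Over all probe sets 4 passed with array weights, 2 when only probe sets with 1 symbol were fitted (an alternative chosen after seeing the data), 2 where the probe sets of each gene were averaged, and 0 to 15 with 1 array left out (15 without mutant replicate 3). Leaving out 1 array in turn gave 2 to 7 higher and 1 to 3 lower adhesion genes at an unadjusted p under 0.05, and 3 to 13 higher and 1 to 9 lower genes with groups apart. Array weights gave 6 lower genes at an unadjusted p under 0.05 (13.6%, against 8.85% of all probe sets). Where no probe set with any value under 20 was kept, 36 genes were left and Spon2 was not among them, which made both counts of lower genes 0. The median log2 difference of the adhesion genes was -0.023 with array weights (-0.027 over all probe sets) and between -0.020 and 0.21 with 1 array left out. It was 0.087 after median centring and 0.066 after quantile normalization. Of 425 values of the 27 named genes under alternatives, 16 changed sign, in 7 genes, each within 1 SE of 0 with all arrays. With 1 array left out, Fn1 ranged from -0.33 to 0.081, Hspg2 from -0.17 to 0.088, Lamc1 from -0.068 to 0.28, Nid2 from -0.26 to 0.097, Thbs1 from -0.18 to 0.60, Tln1 from -0.095 to 0.19 and Vcl from -0.62 to 0.015. With array weights Lamc1 was at -0.020, Thbs1 at -0.035 and Tln1 at -0.042. The causes were not tested. The ranges of the leading genes were 1.01 to 1.49 for Itgbl1, 0.65 to 1.09 for Lama2, 0.63 to 1.18 for Itga10 and -1.797 to -1.07 for Spon2. Whether the replicate numbers mark litters is not stated in the labels, and the numbers were not used as pairs: deviations of same-numbered arrays from their group means correlated at -0.11, -0.026 and 0.32, and mutant replicate 1 correlated best with wild-type replicate 2. With the replicate number as a block, 3 higher genes (6.82%, against 4.95% of all probe sets) and 1 lower gene (2.27%, against 2.62%) had an unadjusted p under 0.05, and 0 passed after adjustment. Genes near an intensity of 20 are limited by background handling that is not stated.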
